A study of Danio rerio with 30 samples.

Results

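Genes that identify retinal ganglion cells were followed through 2 injury experiments in adult zebrafish. The set holds 9 symbols, which are pou4f1, pou4f2, pou4f3, isl2a, isl2b, rbpms2a, rbpms2b, eomesa and thy1. Symbols were matched without regard to letter case, and where the annotation gave only a capital form without the paralog letter, that form was taken. They gave 10 genes among the 32520 Ensembl genes of each count table. The symbols pou4f1, pou4f2, pou4f3 and thy1 each matched 1 gene, whereas ISL2, RBPMS2 and EOMES each matched a pair of genes, for which the annotation does not say which is the a and which the b paralog. These genes are therefore given by symbol and Ensembl ID, and at least 1 eomes gene may lie outside the intended set.

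The study sequenced polyadenylated RNA from retinas, with 3 libraries for each of 10 groups and 30 in all. All fish of the needle poke experiment were wild type, and their retinas were either uninjured with no treatment or stabbed with a needle through the back of the eye in fish kept in water with DMSO (the solvent), PLX3397 (pexidartinib, which inhibits Csf1r, a receptor that microglia need to survive) or ZVAD-fmk (an inhibitor of caspases). The NMDA experiment used wild-type fish and mutants of csf1ra or csf1rb, the zebrafish paralogs of the Csf1r gene, with retinas left uninjured or injured with the excitotoxin NMDA, given into the vitreous. Injured fish were killed 2 days after injury. The mutant alleles, and whether mutants were homozygous, are not given in the labels. No injured group went without immersion in the needle poke experiment, and the uninjured group was not immersed, so needle poke and DMSO cannot be told apart. All library titles hold the letters MG, but the extraction notes describe whole retinas. Whether the 3 libraries of a group stem from separate fish is not stated, and p-values therefore reflect the spread between libraries.

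Retinal ganglion cells are the output neurons of the retina, and their axons form the optic nerve. Their fate and survival depend on a cascade of transcription factors in which the POU-domain proteins of the Pou4f (Brn3) family and the LIM-homeodomain protein Isl2 act after the cells leave the cell cycle. Rbpms2 is an RNA-binding protein used as a marker of ganglion cells across vertebrates, Eomes (Tbr2) marks ganglion cell subsets in the mouse, and Thy1 is a surface glycoprotein used to label ganglion cells in rodents.

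Libraries of the needle poke experiment held 38933511 to 92198888 counts, and those of the NMDA experiment 22849708 to 41622168. Levels are CPM values, which are counts scaled to library size with TMM factors, and are compared for one gene between groups, never between genes. The receptor gene csf1ra stood at 4.15 ± 0.211 CPM in uninjured wild type and at 0.245 ± 0.0778 in uninjured csf1ra mutants, and in between, at 1.35 ± 0.466, in uninjured csf1rb mutants (SD, n = 3). The scarce csf1rb stood at 0.33 to 0.793 CPM in uninjured wild type, at 0.0573 to 0.37 in uninjured csf1rb mutants, which overlapped, and at 0.0369 to 0.175 in uninjured csf1ra mutants, so csf1rb levels did not tell the mutants apart there. After NMDA csf1rb was at 0.268 to 0.373 CPM in wild type, 0.0705 to 0.142 in csf1ra mutants and 0.0 to 0.0353 in csf1rb mutants. In the needle poke experiment 4 libraries, 1 of each group, lay far from their group's other libraries. These were untreated uninjured replicate 2, poke DMSO replicate 3, poke PLX3397 replicate 2 and poke ZVAD-fmk replicate 1. The calls of that experiment are also given without them. Because they were picked for their distance from the rest of their groups, leaving them out narrows the spread within groups by construction. Adjusted p-values without them are lowered in part by that choice, and calls made there are no added support. In the NMDA experiment csf1ra mutant uninjured replicate 5 lay apart from replicates 1 and 4 of its group. Chi-square over degrees of freedom was 92.9 and 143.0 against these, and 17.6 between them. That library was the highest of its group for all 5 pou4f and isl2 genes. For csf1rb mutant uninjured replicate 3 the values were 56.2 and 62.0, and 14.3 between replicates 1 and 2. Markers of several retinal cell types were found. In uninjured wild type of the NMDA experiment the summed levels were 6020 to 7930 CPM for 7 cone markers, 13800 to 15600 for 11 rod markers and 15600 to 17500 for 9 Müller glia markers. In untreated uninjured retinas of the needle poke experiment they were 12000 to 12600, 3780 to 5120 and 23100 to 37200 CPM. These sums cannot tell whole retina from material enriched for 1 cell type.

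After NMDA the Pou4f and Isl2 genes of the wild-type retina fell to between 5.43% and 27.4% of the uninjured level, and both rbpms2 genes fell to 29.4% and 41.5%. Of the 9 member genes with enough counts to be tested, 7 were called lower, and eomes (ENSDARG00000006640) and thy1 were not called. A gene was called at a Benjamini-Hochberg adjusted p under 0.05 in edgeR's quasi-likelihood test over all genes. Among all 20254 genes tested, 34.3% were called lower. The injured libraries of these 7 members all lay below the uninjured ones, as they did for 38.1% of all genes. The median log2 fold change was -1.87 over the tested members and 0.02 over all genes. The marker sums above do not settle whether the material was whole retina or enriched for another cell type. In either case, fewer ganglion cells in the retina and less RNA per ganglion cell cannot be told apart. A change in the share of ganglion cells carried into the material was not tested.

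For pou4f2, a regulator of ganglion cell differentiation and axon growth in the mouse, the wild-type uninjured libraries (replicates 1 to 3) held 19.8, 11.6 and 13.9 CPM, and the wild-type NMDA libraries held 0.469, 1.485 and 0.821. Every uninjured library lay above every injured one. The fitted log2 fold change was -4.04 (SE 0.38, adjusted p = 4.8e-08 by edgeR), a 16.3-fold lower level.

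The relative pou4f1, expressed in ganglion cell subsets, was at 11.2, 8.62 and 7.85 CPM in uninjured wild type and at 0.302, 1.98 and 1.42 after NMDA. The groups did not overlap, and NMDA replicate 1 was far below the other two. The log2 fold change was -2.92 (SE 0.41, adjusted p = 6.5e-06 by edgeR).

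Its paralog pou4f3 was at 7.56, 4.03 and 4.79 CPM before and at 0.201, 0.419 and 0.522 after injury, again without overlap. The log2 fold change was -3.84 (SE 0.42, adjusted p = 3.4e-07 by edgeR).

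The pair of isl2 genes, which mark ganglion cell subsets with particular axon targets in the mouse, had falls of unlike size, which were not tested against each other. The gene isl2 (ENSDARG00000053499) went from 20.6, 13.0 and 11.4 CPM to 0.335, 1.14 and 0.970. It showed the deepest fall of the tested members, with a log2 fold change of -4.21 (SE 0.46, adjusted p = 3e-07 by edgeR). The gene isl2 (ENSDARG00000003971) went from 4.96, 2.79 and 3.02 CPM to 0.570, 1.68 and 0.709. Its groups did not overlap either, but the log2 fold change was -1.87 (SE 0.44, adjusted p = 0.0011 by edgeR).

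The rbpms2 genes had the smallest log2 fold changes of the 7 called members. The gene rbpms2 (ENSDARG00000045930) was at 130.0, 98.95 and 115.9 CPM in uninjured wild type and at 41.9, 54.3 and 46.9 after NMDA, with a log2 fold change of -1.27 (SE 0.13, adjusted p = 1.6e-07 by edgeR). The gene rbpms2 (ENSDARG00000079578) was at 245.6, 223.6 and 212.4 CPM and at 49.9, 76.3 and 74.4, with a log2 fold change of -1.76 (SE 0.18, adjusted p = 1.4e-07 by edgeR). In both genes each injured library lay below each uninjured one.

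The remaining members were scarce. The gene eomes (ENSDARG00000006640) was at 1.61, 0.367 and 0.453 CPM in uninjured wild type and at 0.503, 0.80 and 0.373 after NMDA, with overlapping libraries (log2 fold change -0.52, SE 0.74, adjusted p = 0.55 by edgeR). Without wild-type uninjured replicate 1, which held the high value, its log2 fold change was 0.44 (adjusted p = 0.66 by edgeR). The gene thy1 was at 0.537, 0.403 and 0.679 CPM before and at 0.670, 1.29 and 0.671 after injury (log2 fold change 0.69, SE 0.47, adjusted p = 0.2 by edgeR). The other gene, eomes (ENSDARG00000104243), had too few counts to be tested in either experiment. It had 0 counts in all 3 libraries of uninjured wild type, which allows a level of up to 0.0385 CPM from counting error alone, and 9 counts over the 3 wild-type NMDA libraries.

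**Figure D1:**
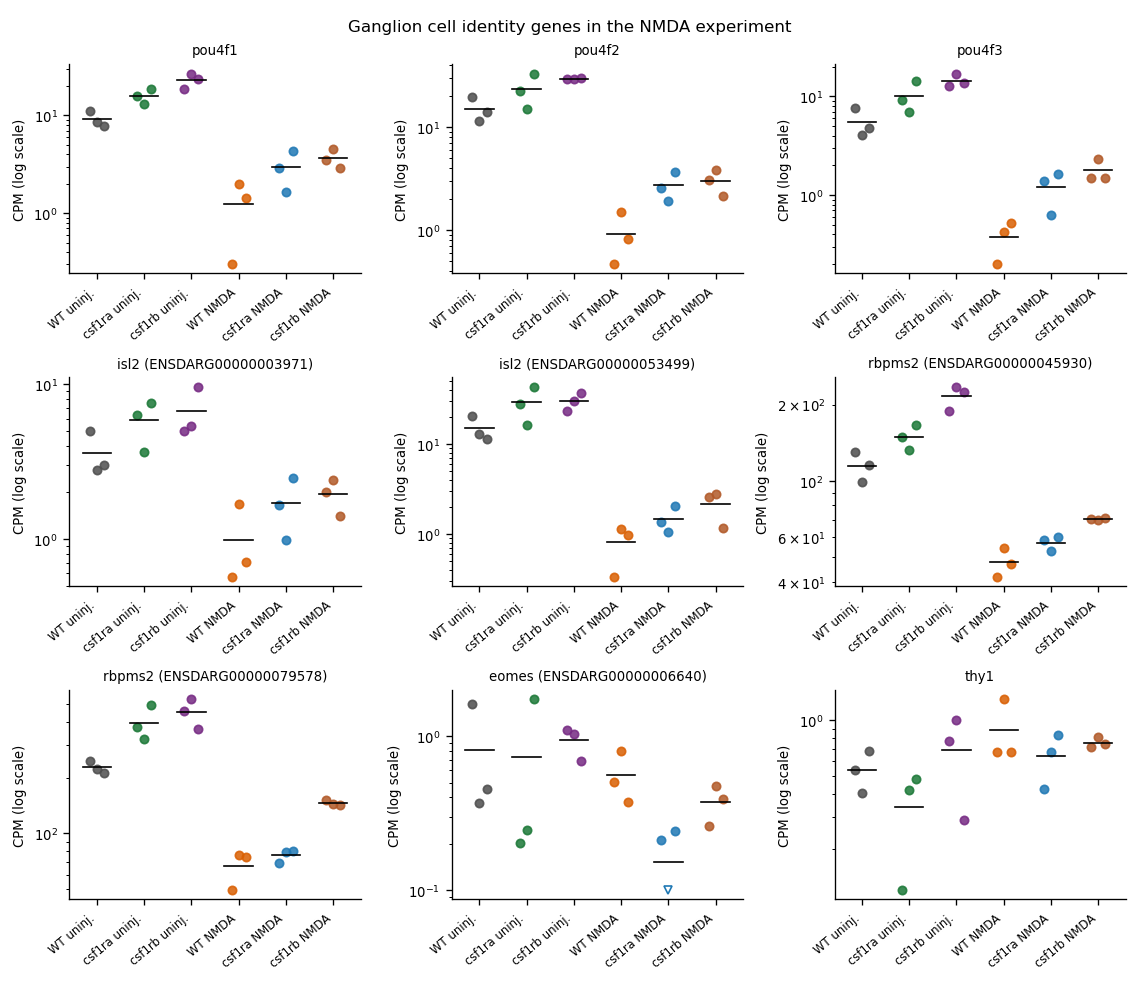
Level of each tested member in every library of the NMDA experiment, in CPM on a log axis, where points are libraries, bars are group means (n = 3) and an open triangle marks a library with 0 counts. For the pou4f, isl2 and rbpms2 genes the 3 NMDA groups lie below the 3 uninjured groups, whereas eomes and thy1 overlap between uninjured and injured wild type.

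The pou4f, isl2 and rbpms2 genes fell after NMDA in both mutants too. In csf1ra mutants 8 of 9 tested members were called lower, where 37.1% of all genes were. In csf1rb mutants 7 of 9 were called lower, where 33.5% of all genes were. Injured libraries lay below all uninjured ones for 7 members in csf1ra mutants and for 8 in csf1rb mutants, and for 35.7% and 36.1% of all genes. The median log2 fold change over the tested members was -2.37 in csf1ra mutants and -1.77 in csf1rb mutants, against -0.01 and 0.06 over all genes.

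In csf1ra mutants, pou4f2 was at 22.5, 15.2 and 33.1 CPM in uninjured replicates 1, 4 and 5 and at 2.58, 1.91 and 3.66 in NMDA replicates 1 to 3 (log2 fold change -3.12, SE 0.34, adjusted p = 2e-07 by edgeR). In csf1rb mutants it was at 29.2, 29.6 and 30.4 CPM in uninjured replicates 1 to 3 and at 3.08, 3.80 and 2.15 in NMDA replicates 1, 2 and 4 (log2 fold change -3.29, SE 0.33, adjusted p = 1.1e-07 by edgeR). The uninjured csf1rb mutant libraries were nearly alike for pou4f2, while those of csf1ra mutants were spread widely.

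The gene isl2 (ENSDARG00000053499) had log2 fold changes of -4.30 in csf1ra mutants (SE 0.43, adjusted p = 7.4e-08 by edgeR) and -3.77 in csf1rb mutants (SE 0.41, adjusted p = 2.5e-07). The gene rbpms2 (ENSDARG00000079578) fell to 19.3% of the uninjured level in csf1ra mutants (log2 fold change -2.37, SE 0.18, adjusted p = 3.3e-09 by edgeR) and to 32.4% in csf1rb mutants (-1.63, SE 0.18, adjusted p = 3.3e-07). Across pou4f1, pou4f3, isl2 (ENSDARG00000003971) and rbpms2 (ENSDARG00000045930) the log2 fold changes lay between -3.05 and -1.39 in csf1ra mutants and between -2.99 and -1.61 in csf1rb mutants.

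The eighth call in csf1ra mutants was eomes (ENSDARG00000006640), which stood at 0.202, 0.245 and 1.73 CPM in uninjured replicates 1, 4 and 5 and at 0.213, 0.0 and 0.242 after NMDA. The libraries overlapped, and 1 uninjured library carried most of the difference (log2 fold change -2.23, SE 0.88, adjusted p = 0.03 by edgeR). The call ended without csf1ra mutant uninjured replicate 5 (log2 fold change -0.55, adjusted p = 0.59 by edgeR), without csf1ra mutant NMDA replicate 2 (-1.67, adjusted p = 0.1) and with the replicate number as a block (-0.22, adjusted p = 0.85).

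Whether the response to NMDA differed by genotype was tested as an interaction of genotype and injury. With edgeR none of the 9 tested members was called in either mutant, where 5.83% of all genes were called for csf1ra and 8.18% for csf1rb. At an unadjusted p under 0.05 the counts were 1 for csf1ra and 0 for csf1rb, and DESeq2 called 0 in both. The shares of all genes under that unadjusted cut were not determined. The interaction values lay between -1.71 and 0.92 on the log2 scale for csf1ra, with a smallest adjusted p of 0.17 for rbpms2 (ENSDARG00000079578) by edgeR, and between -0.75 and 0.85 for csf1rb. For pou4f2 the fall was 0.92 smaller in csf1ra mutants (SE 0.50, adjusted p = 0.3 by edgeR) and 0.75 smaller in csf1rb mutants (SE 0.49, adjusted p = 0.4), and for pou4f3 it was 0.79 and 0.85 smaller (SE 0.57 and 0.55, adjusted p = 0.46 and 0.39). With 1 library left out the pou4f2 values ran from 0.59 to 1.44 for csf1ra and from 0.42 to 1.26 for csf1rb, and those of pou4f3 from 0.47 to 1.13 and from 0.53 to 1.15.

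**Figure D2:**
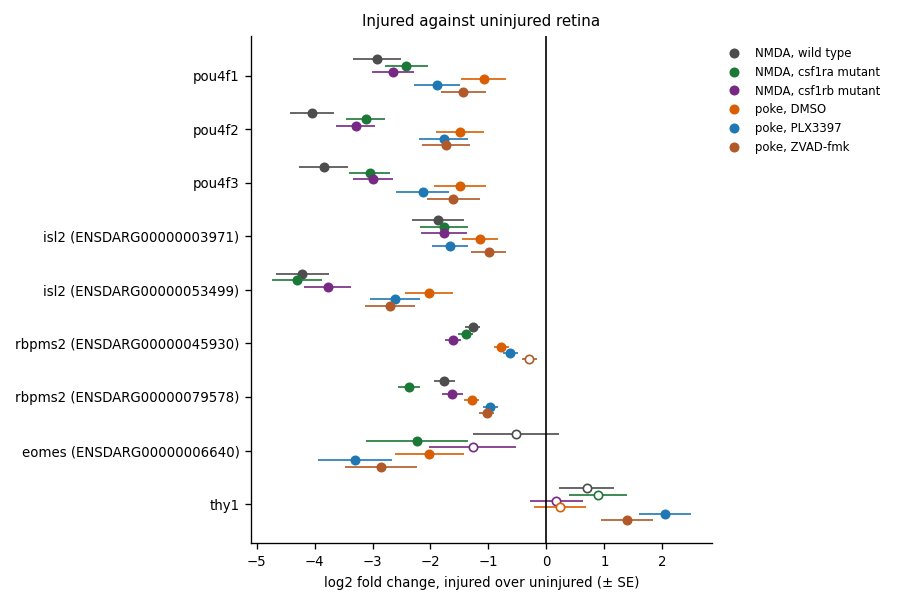
Log2 fold change of injured over uninjured retina for each tested member in the 6 injury comparisons, with bars of 1 SE, where filled points were called at an adjusted p under 0.05 and open points were not. The pou4f, isl2 and rbpms2 genes lie left of 0 in each comparison and thy1 lies right of 0. The 3 needle poke comparisons share their uninjured libraries.

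Several of these genes were called higher in csf1rb mutant than in wild-type retinas, before as well as after NMDA, and fewer were in csf1ra mutants. Among the 9 tested members, uninjured csf1rb mutants had 6 called higher, where 14.5% of all genes were, and uninjured csf1ra mutants had 1, where 7.94% were. After NMDA, csf1rb mutants had 6 called higher, where 11.9% of all genes were, and csf1ra mutants had 3, where 9.24% were. Mutant libraries lay above all wild-type libraries for 7 members in uninjured csf1rb mutants (28.2% of all genes), 3 in uninjured csf1ra mutants (16.0%), 6 in csf1rb mutants after NMDA (22.3%) and 2 in csf1ra mutants after NMDA (21.1%). For csf1ra mutants, the 1 uninjured call and the 2 members apart after NMDA were near the shares of all genes. The median log2 fold changes of the members were 0.98 (csf1rb) and 0.71 (csf1ra) in uninjured retinas and 1.12 and 0.81 after NMDA, against medians of 0.05, 0.04, 0.00 and -0.01 over all genes. Both mutants were set against the same wild-type libraries. They were not tested against each other, so the unlike counts of calls do not show that the mutants differed.

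In uninjured retinas pou4f1 was at 7.85 to 11.2 CPM in wild type and at 18.6, 26.8 and 23.8 in csf1rb mutant replicates 1 to 3, without overlap (log2 fold change 1.32, SE 0.35, adjusted p = 0.0089 by edgeR). The mean of the uninjured csf1ra mutants lay between. Their libraries, at 15.7, 13.2 and 18.7 CPM, overlapped with those of csf1rb mutants. They were also above each wild-type library, but the difference was not called (log2 fold change 0.78, SE 0.34, adjusted p = 0.14 by edgeR). For pou4f3 the csf1rb mutant libraries held 12.7, 16.9 and 13.5 CPM against 4.03 to 7.56 in wild type (log2 fold change 1.40, SE 0.31, adjusted p = 0.0032 by edgeR). This was the largest uninjured difference among the tested members in csf1rb mutants.

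The rbpms2 genes showed the most even differences. In uninjured csf1rb mutants rbpms2 (ENSDARG00000045930) was at 189.2, 235.9 and 224.3 CPM (log2 fold change over wild type 0.91, SE 0.13, adjusted p = 7.2e-05 by edgeR), and rbpms2 (ENSDARG00000079578) was at 456.7, 527.4 and 365.7 (0.99, SE 0.18, adjusted p = 0.00058). The latter was also the 1 member called in uninjured csf1ra mutants, at 372.0, 321.0 and 493.7 CPM in replicates 1, 4 and 5 (log2 fold change 0.80, SE 0.18, adjusted p = 0.0058 by edgeR). No wild-type library reached the level of any of these mutant libraries.

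The remaining uninjured calls in csf1rb mutants were less firm. The call of pou4f2 (log2 fold change 0.98, SE 0.30, adjusted p = 0.022 by edgeR) ended without csf1rb mutant uninjured replicate 2 (0.98), wild-type uninjured replicate 2 (0.82) or wild-type uninjured replicate 3 (0.92), with adjusted p of 0.0537, 0.1 and 0.078. The call of isl2 (ENSDARG00000053499) (log2 fold change 1.01, SE 0.36, adjusted p = 0.044 by edgeR) ended in 6 of 13 alternatives. Among these were leaving out csf1rb mutant uninjured replicate 2 (1.00) or 3 (0.84) and wild-type uninjured replicate 2 (0.92) or 3 (0.84). In uninjured csf1ra mutants the number of calls rose from 1 to 5 when replicate 4 of that group was left out, and to 3 when replicate 1 of uninjured wild type was. With 1 library left out the log2 fold changes ran from 0.32 to 0.89 for pou4f2 and from 0.55 to 1.195 for pou4f3. They ran from 0.57 to 1.265 for isl2 (ENSDARG00000053499), 0.28 to 0.48 for rbpms2 (ENSDARG00000045930) and 0.61 to 0.93 for rbpms2 (ENSDARG00000079578). The last, the 1 called member, kept its call in all 13 alternatives. Replicate 5, which lay apart, was the highest csf1ra mutant library for each of these genes.

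After NMDA, pou4f3 was at 0.201 to 0.522 CPM in wild type, at 1.38, 0.635 and 1.62 in csf1ra mutants and at 1.501, 2.34 and 1.48 in csf1rb mutants. All 6 mutant libraries lay above the 3 wild-type libraries. The log2 fold change was 1.68 in csf1ra mutants (SE 0.47, adjusted p = 0.016 by edgeR) and 2.25 in csf1rb mutants (SE 0.44, adjusted p = 0.0015). For pou4f2 the values were 1.57 in csf1ra mutants (SE 0.40, adjusted p = 0.0092 by edgeR) and 1.73 in csf1rb mutants (SE 0.39, adjusted p = 0.004), again without overlap.

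For pou4f1 the csf1ra mutant libraries held 2.90, 1.66 and 4.32 CPM after NMDA and overlapped with wild type at 0.302 to 1.98 (log2 fold change 1.28, SE 0.42, adjusted p = 0.038 by edgeR), and csf1rb mutants held 3.49, 4.52 and 2.93 (1.59, SE 0.42, adjusted p = 0.01). The latter call ended with only the compared groups in the fit (1.57, adjusted p = 0.058). Calls in csf1ra mutants after NMDA depended on single libraries. Their number fell from 3 to 1 without csf1ra mutant NMDA replicate 3 or without wild-type NMDA replicate 1, and pou4f2 alone was then called. The pou4f1 value without the latter library was 0.80 (adjusted p = 0.12 by edgeR), and without the former 0.91 (adjusted p = 0.16). Without csf1ra mutant NMDA replicate 1 or wild-type NMDA replicate 3 the pou4f1 call also ended, at 1.32 and 1.41.

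The rbpms2 genes were called higher after injury in csf1rb mutants and not in csf1ra mutants, a difference between mutants that was not tested. In csf1rb mutants rbpms2 (ENSDARG00000079578) stood at 150.7, 143.5 and 143.1 CPM after NMDA, against 49.9, 76.3 and 74.4 in wild type (log2 fold change 1.12, SE 0.18, adjusted p = 0.00024 by edgeR). In csf1ra mutants it stood at 69.1, 79.7 and 80.4 CPM, which overlapped with wild type (log2 fold change 0.19, SE 0.18, adjusted p = 0.46 by edgeR). The libraries of the 2 mutants did not overlap for this gene, but the share of all genes apart in that way was not determined. The gene rbpms2 (ENSDARG00000045930) was at 70.8, 70.4 and 71.5 CPM in csf1rb mutants, against 41.9 to 54.3 in wild type (log2 fold change 0.57, SE 0.13, adjusted p = 0.004 by edgeR). It was at 52.91 to 59.8 in csf1ra mutants, which was not called (0.26, SE 0.13, adjusted p = 0.17 by edgeR).

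The call of isl2 (ENSDARG00000053499) in csf1rb mutants after NMDA (log2 fold change 1.45, SE 0.49, adjusted p = 0.039 by edgeR) ended in 6 of 13 alternatives. Among these were leaving out csf1rb mutant NMDA replicate 1 (1.35) or 2 (1.20) and wild-type NMDA replicate 1 (1.06) or 3 (1.60). The gene isl2 (ENSDARG00000003971) was not called in either mutant before or after NMDA, although its log2 fold changes lay between 0.71 and 1.01. For thy1 the 4 genotype values lay between -0.64 and 0.32 and for eomes (ENSDARG00000006640) between -1.85 and 0.22, with no call.

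**Figure D3:**
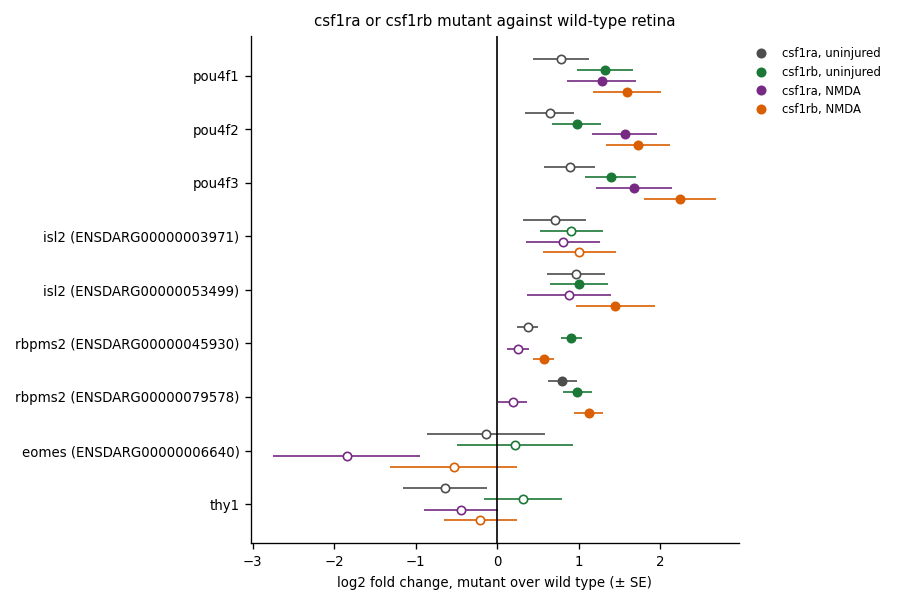
Log2 fold change of csf1ra or csf1rb mutant over wild-type retina for each tested member, uninjured and after NMDA, with bars of 1 SE, where filled points were called at an adjusted p under 0.05 and open points were not. The pou4f, isl2 and rbpms2 genes lie right of 0 in all 4 comparisons, and the values of csf1rb mutants lie right of those of csf1ra mutants in the same state.

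The group means of 7 members, namely the 3 pou4f genes and both pairs of isl2 and rbpms2 genes, stood in one and the same order. From the lowest this was wild-type NMDA, csf1ra mutant NMDA, csf1rb mutant NMDA, wild-type uninjured, csf1ra mutant uninjured and csf1rb mutant uninjured. For all 7 genes the libraries of csf1rb mutants after NMDA lay below those of uninjured wild type, as did 38.2% of all genes tested. The other neighbours in the order mostly overlapped. Wild-type and csf1ra mutant NMDA libraries were apart for pou4f2 and pou4f3, where 21.1% of all genes had the mutant above. Uninjured wild-type and csf1ra mutant libraries were apart for pou4f1 and both rbpms2 genes, where 16.0% of all genes had the mutant above. The 2 mutants were apart after NMDA for both rbpms2 genes, and uninjured for rbpms2 (ENSDARG00000045930). The share of all genes with the 2 mutants apart was not determined, so these gaps cannot be weighed. The shared order is given as a description. The share of all genes in that order was not determined, so it is not shown to be particular to these genes. In the same order of groups, the median summed levels of 2 horizontal markers were 59.7, 67.9, 93.4, 179, 207 and 205 CPM. Those of 12 amacrine markers were 885, 595, 607, 3660, 3040 and 4020 CPM.

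Markers of other cells moved with genotype as well. The summed level of 11 rod markers was 13800 to 15600 CPM in uninjured wild type, 5780 to 8970 in csf1ra mutants and 1520 to 3160 in csf1rb mutants. That of 8 oligodendrocyte and optic nerve markers was 55.1 to 57.2, 84.0 to 111 and 91.6 to 146 CPM in the same order, and that of 9 Müller glia markers was 15600 to 17500, 22900 to 27600 and 24900 to 28100. For 12 amacrine markers it was 3520 to 3770, 2780 to 3710 and 3850 to 4150 CPM. The 9 microglia and macrophage markers summed to 33.6 to 35.7, 8.24 to 14.6 and 14.6 to 16.9 CPM. They include csf1ra, the gene mutated in 1 of the lines, with means of 4.15, 0.245 and 1.35 CPM. The 7 cone markers summed to 6020 to 7930, 5240 to 6910 and 3060 to 4750 CPM, and the 7 dividing cell markers to 35.0 to 40.2, 30.8 to 73.2 and 51.7 to 123. In uninjured csf1rb mutants 8 of 10 rod and 4 of 7 cone markers tested were lower than in wild type, where 12.4% of all genes were. Of the oligodendrocyte and optic nerve markers 7 of 8 were higher, and of the dividing cell markers 5 of 7, where 14.5% of all genes were. After NMDA, rod markers summed to 3290 to 5750 CPM in wild type, 1220 to 1970 in csf1ra mutants and 595 to 1500 in csf1rb mutants, Müller glia markers to 3090 to 5160, 3190 to 4040 and 7930 to 8300, and bipolar markers to 891 to 1190, 414 to 546 and 565 to 744. In csf1rb mutants after NMDA 8 of 10 rod markers were lower and 6 of 9 Müller glia markers higher than in wild type. In csf1ra mutants 7 of 10 rod and 8 of 12 bipolar markers were lower. Of all genes 11.9% were higher in csf1rb mutants after NMDA, and the shares called lower in these comparisons are not given here. CPM values are shares of a library, and the part of these shifts in the mutant differences of the ganglion cell genes was not tested.

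After NMDA the sums fell for other neurons and glia of the wild-type retina too, to 852 to 1010 CPM for the amacrine markers, 3290 to 5750 for the rod markers, 2010 to 3860 for the 7 cone markers and 3090 to 5160 for the Müller glia markers. Of the amacrine markers tested, 9 of 11 were called lower, where 34.3% of all genes were, with a median log2 fold change of -1.66, beside -1.87 for the tested members. The 7 dividing cell markers went from 35.0 to 40.2 CPM to 2570 to 2680. The part of these shifts in the falls above was not tested.

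After needle poke in DMSO the pou4f, isl2, rbpms2 and eomes (ENSDARG00000006640) genes fell. Of the 9 tested members 8 were called lower against the untreated uninjured retina, where 13.4% of the 21334 genes tested were, and thy1 was not called. Poke DMSO libraries lay below all uninjured ones for 7 members and for 20.3% of all genes. The median log2 fold change was -1.29 over the members and -0.03 over all genes. Needle poke and NMDA belong to separate experiments, and their sizes were not tested against each other. The summed level of the Müller glia markers went from 23100 to 37200 CPM in uninjured retinas to 10700 to 11700, and that of the dividing cell markers from 58.4 to 71.8 to 1280 to 1600. The microglia and macrophage markers summed to at most 95.1 CPM in uninjured retinas. In poke DMSO their sum ran from 113 to 588 CPM with a median of 115, near the low end. Of the marker genes tested, 5 of 9 for Müller glia, 5 of 12 for bipolar and 2 of 2 for horizontal cells were lower, where 13.4% of all genes were. For microglia and macrophages 7 of 9 and for dividing cells 7 of 7 were higher, where 18.2% of all genes were. For amacrine cells 0 of 11 and for rod cells 0 of 10 were called. The part of these shifts was not tested. Levels after poke ran from 24.5% of the uninjured level for isl2 (ENSDARG00000053499) to 58.2% for rbpms2 (ENSDARG00000045930).

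The deepest falls were those of isl2 (ENSDARG00000053499) and eomes (ENSDARG00000006640). For the former the untreated uninjured libraries (replicates 1 to 3) held 39.3, 15.9 and 36.3 CPM and the poke DMSO libraries 7.29, 8.39 and 6.76, without overlap (log2 fold change -2.02, SE 0.42, adjusted p = 0.0022 by edgeR). For eomes (ENSDARG00000006640) the values were 3.53, 1.94 and 3.23 CPM against 0.645, 0.514 and 0.977 (log2 fold change -2.02, SE 0.59, adjusted p = 0.019 by edgeR). The other eomes gene, ENSDARG00000104243, had 0 counts in each of these 6 libraries.

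For pou4f2 the uninjured libraries held 44.9, 19.6 and 45.5 CPM and the poke DMSO libraries 16.4, 13.2 and 9.52 (log2 fold change -1.49, SE 0.41, adjusted p = 0.014 by edgeR). The groups did not overlap, and uninjured replicate 2 stood at less than 0.5 times the others. For pou4f3 the libraries held 18.8, 9.84 and 18.3 CPM against 6.12, 6.33 and 4.21 (-1.49, SE 0.45, adjusted p = 0.023). For pou4f1 they held 23.5, 10.7 and 23.3 CPM against 9.07, 12.5 and 5.62 and overlapped, because uninjured replicate 2 was below poke DMSO replicate 2 (-1.08, SE 0.39, adjusted p = 0.0498 by edgeR).

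The rbpms2 genes had the smallest standard errors of the tested members. The gene rbpms2 (ENSDARG00000079578) was at 354.9, 413.2 and 344.6 CPM in uninjured retinas and at 149.0, 156.0 and 149.7 in poke DMSO (log2 fold change -1.29, SE 0.13, adjusted p = 9e-06 by edgeR). The gene rbpms2 (ENSDARG00000045930) was at 93.8, 77.9 and 95.05 CPM and at 57.2, 55.8 and 42.4 (-0.78, SE 0.13, adjusted p = 0.00044). The gene isl2 (ENSDARG00000003971) was at 6.73, 3.76 and 7.17 CPM and at 2.80, 2.73 and 2.43 (-1.14, SE 0.31, adjusted p = 0.011). None of these groups overlapped.

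The number of calls after needle poke depended on the libraries in the fit. Without poke DMSO replicate 1 or 3 it was 5, without untreated uninjured replicate 1 it was 4, and without untreated uninjured replicate 3 it was 3. The log2 fold changes of the calls that ended stayed negative, at -1.08 to -0.83 for pou4f1, at -1.32 to -1.29 for pou4f2, -1.57 to -1.32 for pou4f3 and -1.95 to -1.84 for eomes (ENSDARG00000006640), and at -0.97 for isl2 (ENSDARG00000003971). The call of pou4f1 ended in 8 of 14 alternatives. The next fit leaves out libraries picked for their distance, which narrows the spread, so its calls are no added support. Without the 4 libraries that stood apart, all 8 members were called, with log2 fold changes of -1.11 for pou4f1, -1.59 for pou4f2, -1.56 for pou4f3, -1.31 for isl2 (ENSDARG00000003971), -2.26 for isl2 (ENSDARG00000053499), -0.73 for rbpms2 (ENSDARG00000045930), -1.18 for rbpms2 (ENSDARG00000079578) and -2.51 for eomes (ENSDARG00000006640). The calls of isl2 (ENSDARG00000053499) and both rbpms2 genes held in all 14 alternatives.

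**Figure D4:**
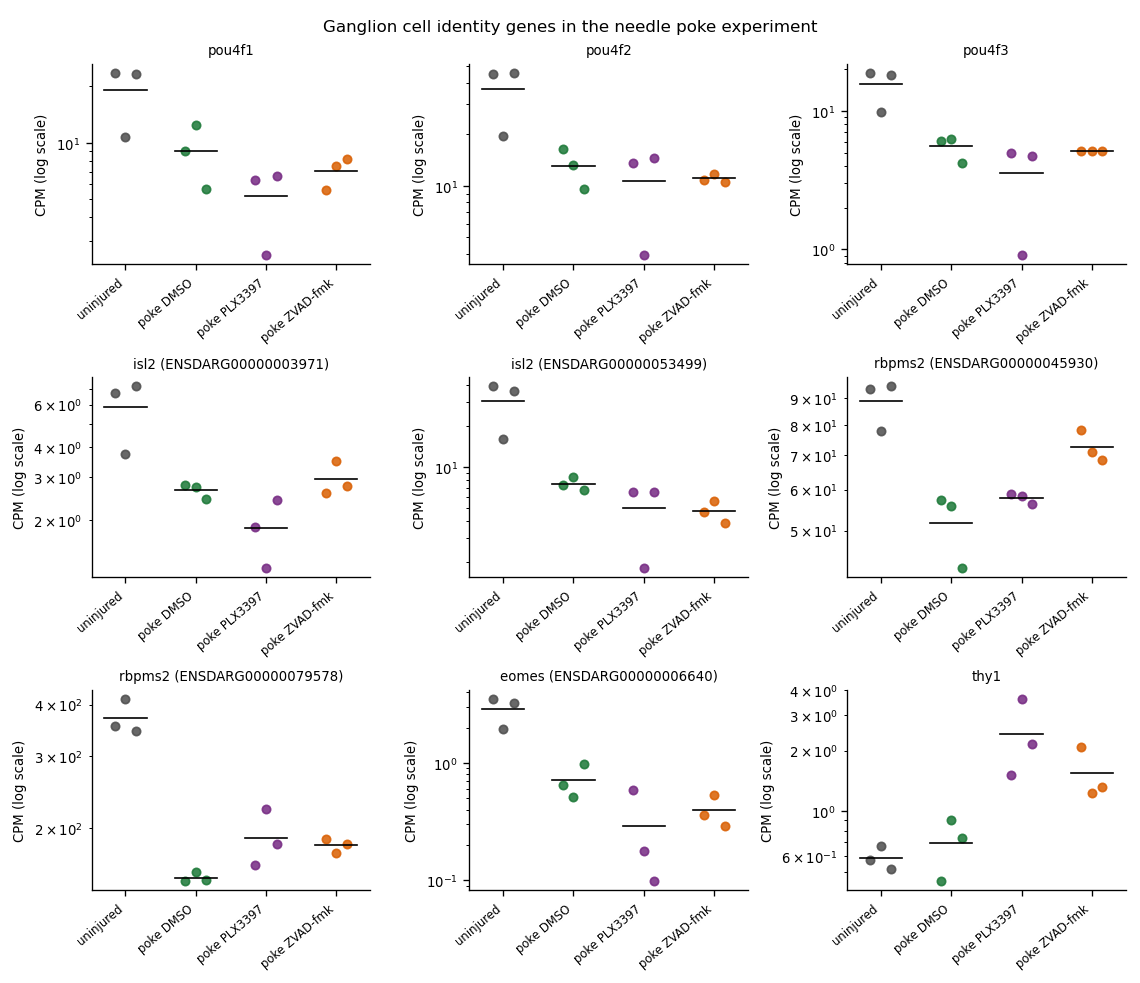
Level of each tested member in every library of the needle poke experiment, in CPM on a log axis, where points are libraries and bars are group means (n = 3). The mean of the untreated uninjured group is the highest for 8 genes, with replicate 2 often below the other two, and thy1 is highest in the PLX3397 group.

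The poke groups with inhibitors were compared with poke in DMSO. This sets drug against solvent, so depletion of microglia or block of caspases cannot be told apart from other effects of the drugs. For 8 of the 9 tested members the drug PLX3397 gave no call. The exception was thy1, called higher, where 16.5% of all genes were called higher and 17.7% lower. With ZVAD-fmk 1 of 9 members was called, rbpms2 (ENSDARG00000045930), which was higher, where 9.7% of all genes were called higher and 8.96% lower. For either drug, 1 higher call among 9 members was near the share of all genes called higher. The counts of calls therefore do not set the members apart from other genes. The median log2 fold change of the members was -0.52 with PLX3397 and -0.12 with ZVAD-fmk, against -0.01 and -0.02 over all genes. Other cells moved with the drugs. The rod markers summed to 4360 to 5400 CPM in poke DMSO, 824 to 1810 with PLX3397 and 1300 to 1660 with ZVAD-fmk. The microglia and macrophage markers summed to 113 to 588 (median 115), 23.4 to 39.9 and 78.2 to 81.6 CPM in the same order. Their part in the results below was not tested.

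The surface glycoprotein gene thy1 was at 0.452, 0.904 and 0.738 CPM in poke DMSO, at 1.51, 3.62 and 2.15 in poke PLX3397 and at 2.08, 1.23 and 1.32 in poke ZVAD-fmk. The libraries of either drug lay above those of DMSO. The log2 fold change was 1.80 with PLX3397 (SE 0.44, adjusted p = 0.0068 by edgeR), and it held in all 14 alternatives, with 1.46 (adjusted p = 0.042) without the 4 libraries that stood apart. With ZVAD-fmk it was 1.15 (SE 0.44, adjusted p = 0.085 by edgeR), which DESeq2 called (1.15, adjusted p = 0.046). Between untreated uninjured retinas, at 0.570, 0.672 and 0.516 CPM, and poke DMSO no difference was called (0.24, SE 0.44, adjusted p = 0.73 by edgeR). The summed level of 10 smooth muscle and mural markers, cells of vessel walls, was 421 to 527 CPM in poke DMSO, 735 to 1080 with PLX3397 and 964 to 979 with ZVAD-fmk. That of 8 T and NK cell markers was 0.968 to 2.10, 1.44 to 2.09 and 1.55 to 1.71 CPM. The part of other cell types in the thy1 result was not tested.

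The gene rbpms2 (ENSDARG00000045930) was at 57.2, 55.8 and 42.4 CPM in poke DMSO and at 78.2, 70.8 and 68.3 in poke ZVAD-fmk, without overlap (log2 fold change 0.48, SE 0.13, adjusted p = 0.02 by edgeR). The call ended without poke DMSO replicate 3 (0.36, adjusted p = 0.0547), without poke ZVAD-fmk replicate 1 (0.42, adjusted p = 0.085) and without poke ZVAD-fmk replicate 2 (0.50, adjusted p = 0.055). Without the 4 libraries that stood apart the value was 0.30 and was called (adjusted p = 0.013 by edgeR). With PLX3397 this gene was at 58.9, 58.3 and 56.3 CPM, which overlapped with DMSO. For rbpms2 (ENSDARG00000079578) the libraries of either drug lay above those of DMSO, at 162.6, 222.2 and 183.5 CPM with PLX3397 and 188.6, 174.1 and 183.1 with ZVAD-fmk. Neither difference was called (log2 fold changes 0.32 and 0.26, SE 0.13 for each, adjusted p = 0.073 and 0.18 by edgeR). The PLX3397 value was called by DESeq2 (0.32, adjusted p = 0.033) and without poke PLX3397 replicate 1 (0.42, adjusted p = 0.029 by edgeR), and it was 0.20 without the 4 libraries that stood apart.

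The transcription factor genes showed no call with either drug in the fit of all libraries. For pou4f1 the PLX3397 libraries held 6.33, 2.51 and 6.64 CPM against 9.07, 12.5 and 5.62 in DMSO (log2 fold change -0.81, SE 0.39, adjusted p = 0.13 by edgeR). Here poke PLX3397 replicate 2 and poke DMSO replicate 3, both among the 4 libraries that stood apart, were the lowest of their groups. With 1 library left out the pou4f1 value ran from -1.06 to -0.48. For eomes (ENSDARG00000006640) the value with PLX3397 was -1.28 (SE 0.60, adjusted p = 0.12 by edgeR), and without poke PLX3397 replicate 1 it was -2.33 and was called (adjusted p = 0.012). For isl2 (ENSDARG00000053499) the value with ZVAD-fmk was -0.67 (SE 0.41, adjusted p = 0.29 by edgeR), and with only the compared groups in the fit it was -0.68 and was called (adjusted p = 0.034). Without those 4 libraries the pou4f1 value was -0.71 and was called (adjusted p = 0.0044), as were, for ZVAD-fmk, isl2 (ENSDARG00000053499) at -0.73 (adjusted p = 0.0074) and pou4f2 at -0.41 (adjusted p = 0.033), all by edgeR with 2 libraries in each group. The choice of those libraries narrows the spread within groups, so such calls are no added support.

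PLX3397 and ZVAD-fmk were also set against each other. With edgeR no member was called, where 8.24% of all genes were. At an unadjusted p under 0.05 there were 2, isl2 (ENSDARG00000003971) and rbpms2 (ENSDARG00000045930), and DESeq2 called 0. The share of all genes under that unadjusted cut was not determined, so the count of 2 cannot be weighed. The log2 differences, PLX3397 minus ZVAD-fmk, lay between -0.67 and 0.65.

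Against untreated uninjured retinas, PLX3397 gave 8 of 9 members lower, where 19.9% of all genes were, and thy1 higher (log2 fold change 2.04, SE 0.45, adjusted p = 0.0026 by edgeR), where 23.0% were. ZVAD-fmk gave 7 lower, where 18.6% were, and thy1 higher (1.39, SE 0.44, adjusted p = 0.023 by edgeR), where 21.9% were. The latter thy1 call ended without poke ZVAD-fmk replicate 1 (1.12), untreated uninjured replicate 1 (1.37) or untreated uninjured replicate 3 (1.31), and without the 4 libraries that stood apart (1.24). These comparisons share the uninjured libraries with that of poke DMSO. The gene isl2 (ENSDARG00000053499) stood at 6.57, 1.80 and 6.54 CPM with PLX3397 and at 4.64, 5.62 and 3.83 with ZVAD-fmk, below each poke DMSO library and each uninjured library. Its log2 fold changes over uninjured were -2.62 with PLX3397 (SE 0.43, adjusted p = 0.00029 by edgeR) and -2.70 with ZVAD-fmk (SE 0.43, adjusted p = 0.00025). For eomes (ENSDARG00000006640) they were -3.30 (SE 0.63, adjusted p = 0.00096 by edgeR) and -2.86 (SE 0.62, adjusted p = 0.0023). Without the 4 libraries that stood apart the values were -2.50 and -2.99 for isl2 (ENSDARG00000053499) and -3.23 and -3.00 for eomes (ENSDARG00000006640), and thy1 with PLX3397 was at 1.78 (adjusted p = 0.016 by edgeR).

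Within a group, the 5 transcription factor genes of the Pou4f and Isl2 families tended to be low in the same library. In 8 of the 10 groups 1 library was the lowest for all 5 genes, and the exceptions were poke ZVAD-fmk and uninjured wild type, in each of which 3 of 5 shared the lowest library. The libraries that were lowest for all 5 included untreated uninjured replicate 2, poke DMSO replicate 3 and poke PLX3397 replicate 2, which are 3 of the 4 libraries that stood apart. The widest spread was in wild-type NMDA, where the highest library held 2.6 to 6.57 times the lowest, and in poke PLX3397, where it held 1.92 to 5.5 times. The rbpms2 genes spread by 1.02 to 1.54 times within any group. In the untreated uninjured group rbpms2 (ENSDARG00000079578) was highest, at 413.2 CPM, in the replicate in which the 5 transcription factor genes were lowest.

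**Figure D5:**
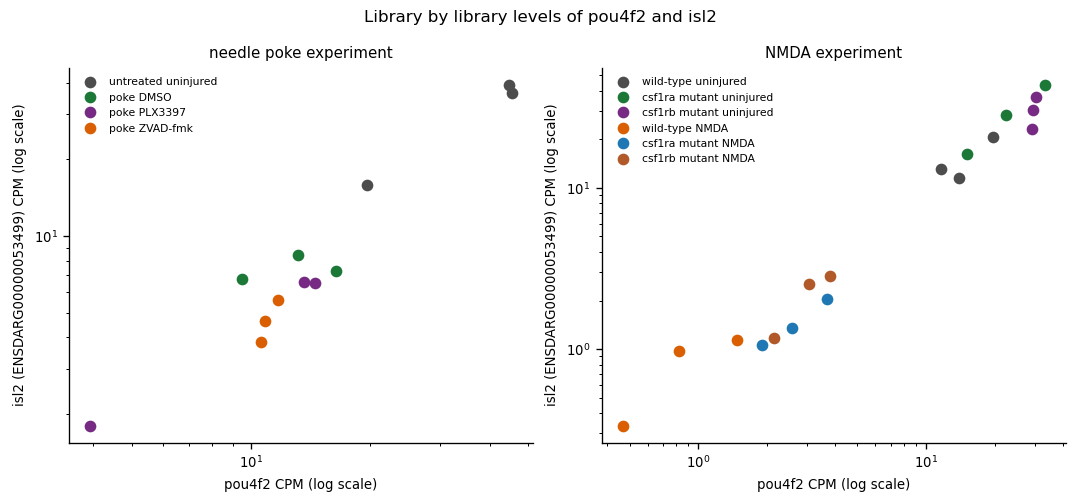
Level of isl2 (ENSDARG00000053499) against pou4f2 in every library, in CPM on log axes, for the needle poke experiment (left) and the NMDA experiment (right), where each point is 1 library. Libraries low in one gene were low in the other within most groups, and in the NMDA experiment no injured library reached 4 CPM of pou4f2 while no uninjured library lay under 11.

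To ask which other genes followed the same pattern, the members' group means on the log2 scale were centred within each experiment and averaged, and each of 16392 genes with a mean of at least 1 CPM in both experiments was treated alike. The 5 nearest genes by root-mean-square difference over the 10 groups were si:dkey-276j7.3 (0.143 on the log2 scale), si:dkey-35i13.1 (0.156), rxrga (0.172), nrn1 (ENSDARG00000042656) (0.179) and npffr2 (ENSDARG00000033635) (0.18). The gene rxrga encodes a retinoid X receptor, nrn1 encodes neuritin, a small neuronal surface protein, and npffr2 a neuropeptide FF receptor. Mean rxrga levels were 20.9 CPM in uninjured wild type, 5.38 in wild-type NMDA, 40.7 in untreated uninjured and 18.2 in poke DMSO retinas. Mean npffr2 (ENSDARG00000033635) levels were 32.5, 8.66, 57.3 and 17.2 CPM in the same order. Among the members themselves, rbpms2 (ENSDARG00000079578) and isl2 (ENSDARG00000003971) lay nearest to the average, at 0.192 and 0.195, and thy1 farthest, at 1.316.

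A wider set of 80 genes tied to ganglion cells, in 5 lists by role, was read the same way. After NMDA in wild type 49 of the 75 tested were called lower and 13 higher, where 34.3% and 35.6% of all genes were, with a median log2 fold change of -1.27. After needle poke in DMSO 18 of 77 were lower and 9 higher, where 13.4% and 18.2% of all genes were, with a median of -0.11, beside -1.29 for the members. In uninjured csf1rb mutants 31 of 75 were higher and 8 lower, where 14.5% and 12.4% of all genes were, with a median of 0.43. In uninjured csf1ra mutants 11 were higher and 6 lower, where 7.94% and 6.74% of all genes were. With PLX3397, 21 of 77 were lower and 17 higher than in poke DMSO, where 17.7% and 16.5% of all genes were, with a median of -0.16. These shares of all genes also stand beside the counts of the single lists below, for the same comparisons.

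Among genes of ganglion cell specification and onset, 4 of 9 tested were lower and 3 higher after NMDA in wild type, shares near the 34.3% and 35.6% of all genes. The onecut factor gene onecutl fell from 4.96 to 0.573 CPM (log2 fold change -3.10, SE 0.45, adjusted p = 1e-05 by edgeR), and the LIM-homeodomain gene isl1, which other retinal neurons express as well, from 73.3 to 20.4 CPM (-1.84, SE 0.19, adjusted p = 1.4e-07). The neuronal differentiation factor gene sox4 (ENSDARG00000004588) rose from 56.6 to 340.7 CPM after NMDA (2.59, SE 0.20, adjusted p = 5.3e-09) and from 65.2 to 215.7 after poke (1.73, SE 0.21, adjusted p = 4.2e-05), or by 1.45 on the log2 scale without the 4 libraries that stood apart. The gene atoh7, whose bHLH product starts the ganglion cell programme, was chosen for mention after its values were seen. It stood at 1.02 ± 0.136 CPM before and 0.360 ± 0.0807 after NMDA in wild type (SD, n = 3), with a log2 fold change of -1.49 (SE 0.60, adjusted p = 0.035 by edgeR) whose call ended in 5 of 13 alternatives, such as without wild-type NMDA replicate 2 (-1.33). In the other experiment it stood at 1.45 ± 0.661 in untreated uninjured and 1.60 ± 1.03 in poke DMSO retinas.

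Of the transcription factors that mark ganglion cell subtypes, 17 of 23 tested were lower and 3 higher after NMDA in wild type. The Iroquois genes irx4 and irx4b had the largest falls, from 5.77 to 0.468 CPM (log2 fold change -3.63, SE 0.36, adjusted p = 9.7e-08 by edgeR) and from 2.06 to 0.133 (-3.91, SE 0.58, adjusted p = 1.3e-05). After poke 8 of 24 were lower and 1 higher, and the value of irx4b was -2.06 (SE 0.69, adjusted p = 0.036), a call that ended in 5 of 14 alternatives, such as without poke DMSO replicate 3 (-1.77), and that held without the 4 libraries that stood apart (-2.09). The forkhead gene foxp1a rose after NMDA from 12.7 to 28.2 CPM (1.15, SE 0.17, adjusted p = 8.5e-06).

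Of cytoskeleton and neuronal RNA-binding genes, 13 of 22 were lower and 2 higher after NMDA in wild type. The synuclein gene sncg (ENSDARG00000109715) fell from 544.0 to 117.9 CPM (log2 fold change -2.21, SE 0.23, adjusted p = 1.5e-07 by edgeR). The growth cone gene gap43, which zebrafish ganglion cells express when they regrow axons, moved the other way. It rose from 7.21 to 281.9 CPM after NMDA (5.29, SE 0.45, adjusted p = 1.3e-08) and from 9.95 to 251.2 CPM after poke (4.67, SE 0.40, adjusted p = 1.7e-06). With PLX3397 it was at 48.4 CPM, lower than in DMSO (-2.38, SE 0.35, adjusted p = 0.00026), and with ZVAD-fmk at 86.0 (-1.55, SE 0.34, adjusted p = 0.0077). It was higher in uninjured csf1rb mutants than in wild type, at 22.6 CPM (1.64, SE 0.40, adjusted p = 0.0053). With PLX3397, 12 of the 22 genes of this list were lower than in DMSO and 2 higher, where 17.7% and 16.5% of all genes were. The 2 higher genes were nefla (1.105, SE 0.29, adjusted p = 0.011 by edgeR) and mapta (0.65, SE 0.18, adjusted p = 0.015). Their calls ended in 1 and 2 of 14 alternatives. Without the 4 libraries that stood apart gap43 was at 4.40 after poke, -2.04 with PLX3397 and -1.50 with ZVAD-fmk on the log2 scale, each called.

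Of adhesion and guidance genes, 9 of 15 were lower and 5 higher after NMDA in wild type. The gene alcamb, 1 of the neurolin cell adhesion genes that label growing ganglion cell axons in fish, rose from 1.81 to 10.8 CPM (log2 fold change 2.58, SE 0.25, adjusted p = 5.9e-08 by edgeR). After poke it rose from 5.04 to 28.3 CPM (2.50, SE 0.38, adjusted p = 0.0002), and with PLX3397 it was at 4.53, lower than in DMSO (-2.64, SE 0.38, adjusted p = 0.00019). Without the 4 libraries that stood apart these values were 2.23 and -2.20, both called. It stood at 8.88 CPM in uninjured csf1rb mutants, higher than in wild type (2.30, SE 0.25, adjusted p = 5.1e-06). The guidance receptor gene robo1 fell from 7.06 to 2.28 CPM after NMDA (-1.63, SE 0.23, adjusted p = 6.3e-06). Other genes of this list, dcc and nrp1b, were higher with PLX3397 than in DMSO. Their log2 fold changes were 1.765 (SE 0.40, adjusted p = 0.004 by edgeR) and 1.67 (SE 0.27, adjusted p = 0.00042), and both calls held in all 14 alternatives.

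Of genes for glutamate release and melanopsins, all 6 tested were lower after NMDA in wild type, and 2 of 7 were lower after poke. The vesicular glutamate transporter gene slc17a6 (ENSDARG00000041150), through which ganglion cells load glutamate, fell from 18.9 to 1.82 CPM after NMDA (log2 fold change -3.38, SE 0.29, adjusted p = 1.4e-08 by edgeR). The melanopsin gene opn4 (ENSDARG00000053929) fell from 5.34 to 0.754 CPM (-2.81, SE 0.27, adjusted p = 6.4e-08). Melanopsins of fish are expressed in several retinal cell types besides ganglion cells.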

How the data were processed

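Polyadenylated RNA of retinas was sequenced in 30 libraries. The submitters' processing notes name STAR 2.7.8a, RSEM 1.3.3, cutadapt 4.8 and FastQC 0.11.8, and the genome build GRCz11, without roles or order. The annotation release and strand setting are not given in the sources used here, so overlapping and antisense genes cannot be told apart. The authors deposited estimated counts per gene, 1 table for each experiment, as whole numbers with replicates not pooled. Of the needle poke data, 9 columns matched no sample and were not used. Reporter entries held 0.0518% and 0.0464% of counts and were left out.

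Gene symbols were available for 29201 Ensembl IDs. Each experiment was fitted once, over all its libraries, with edgeR 4.0.16 and limma 3.58.1 in R 4.3.3 (robust quasi-likelihood F test, two-sided, 1 mean per group, TMM, filterByExpr). Of 25975 genes with counts this kept 21334 for needle poke, and of 26728 it kept 20254 for NMDA. Common coefficients of variation between libraries were 0.292 and 0.171. There were 15 comparisons, with p-values adjusted by Benjamini-Hochberg over all genes of each. An SE is the log2 fold change divided by the root of its F value. A group without any count was given a limit of 3 counts over the group. The reads carry no molecular identifiers, so such limits cover counting error only. Counts of libraries of one group differed beyond sampling noise (chi-square over degrees of freedom of at least 7.73), so none was counted as a copy. The test was checked on simulated counts in which few genes changed, so scaling under shifts of many genes was not checked.

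In each ganglion cell list the genes eligible for naming were the 2 largest rises and 2 largest falls among those called, in 3 comparisons (NMDA in wild type, poke DMSO, PLX3397 against DMSO), and a subset is given. Comparisons of gap43 and alcamb beyond these, and atoh7, were added after their values were seen. Genes of like pattern used a pseudocount of 0.1 CPM. Alternatives were DESeq2 1.42.0, other scaling factors, no filter, a non-robust fit, only the compared groups, a replicate block, and leaving out libraries. The members and lists were chosen with earlier results of these data known.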

Additional observations from a re-analysis of the deposited data

How the results depend on the processing

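Of 65 calls of a member in a comparison, 50 held under every alternative run, and of 1916 member values under an alternative 43 turned sign, none of them called in the reported fit. Of 55 calls of the named list genes, 38 held under every alternative. Counts of members called moved by over 1.5 times as follows. With DESeq2 they were 2 for PLX3397 against DMSO (1 in the reported fit), 2 for ZVAD-fmk against DMSO (1) and 3 for csf1ra mutants against wild type, uninjured (1). With only the compared groups in the fit the latter 2 were 2 each. Without the 4 libraries that stood apart the counts were 2 for PLX3397 against DMSO, 3 for ZVAD-fmk against DMSO and 1 for PLX3397 against ZVAD-fmk (0). Leaving out 1 library at a time gave 3 to 8 calls for poke DMSO against uninjured (8), 1 to 3 for PLX3397 against DMSO, 0 to 1 for ZVAD-fmk against DMSO, 1 to 5 for uninjured csf1ra mutants and 1 to 3 for csf1ra mutants after NMDA (3). The cause was not tested. Of the members printed as not called, eomes (ENSDARG00000006640) in NMDA against uninjured wild type ranged from -0.88 to 0.44 on the log2 scale with 1 library left out, and thy1 in NMDA against uninjured csf1rb mutants from -0.23 to 0.56. No pairing of samples by the replicate numbers in the titles was seen. Deviations of same-numbered libraries correlated at -0.132 to 0.162 over 18 pairs in the needle poke experiment and at -0.15 to 0.142 over 32 in the NMDA experiment. Such low correlations cannot exclude a pairing. With the replicate number as a block the count was 7 for poke DMSO against uninjured (8) and 7 for NMDA in csf1ra mutants (8), and no other count changed. Upper quartile factors moved the median of all genes from 0.02 to -0.11 in NMDA against uninjured wild type and from -0.01 to -0.15 in csf1ra mutants. Depth limits the eomes genes and thy1, which had 13 to 403 counts over a group where tested.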
